A study of Mus musculus with 4 samples.

Results

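A set of 9 genes of fatty acid uptake, binding, activation and storage were followed in EpCAM-positive epithelial cells of the mouse lung: Lpl, Cd36, Fabp5, Acsl1, Acsl3, Acsl4, Acsl5, Plin2 and Plin3. They were chosen by symbol for their known roles, with earlier results of these data known. All 9 were found among the 23444 genes of the deposited expression table. RNA sequencing was done on 4 libraries from embryos at E18.5 (days of gestation), 2 headed mutant, from a conditional Emc3 knockout in the developing lung epithelium (mutants), and 2 headed control, from wild-type embryos (controls). What drove the deletion, and whether a library came from 1 embryo or several, was not stated in the sources used here, so p-values reflect variation among these libraries alone. Each library is called by the word and the first number of its heading, as mutant 27, mutant 35, control 27 and control 35. The sample titles disagree with these headings, calling mutant 27 a wild-type and control 35 a knockout. Emc3 itself was at 2.28 RPKM in the library headed mutant 27 and 2.33 in mutant 35, and at 14.2 in control 27 and 18.0 in control 35, and it passed the test described below (difference -2.36, SE 0.16, limma adjusted p = 0.0242). That call ended when all genes were kept (adjusted p = 0.171) or when 10 RPKM was required (adjusted p = 0.0696). All directions here follow the headings. Under the groups of the titles the sign turned, to 0.17 (SE 1.06) for Emc3, 0.21 (SE 0.55) for Fabp5 and 0.29 (SE 0.49) for Lpl. None of these passed, and each of those groups holds 1 library low in Emc3 and 1 high in it.

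Long-chain fatty acids reach an epithelial cell either free or packed as triglyceride in lipoproteins. Lipoprotein lipase releases them from the triglyceride, CD36 helps them cross the plasma membrane, fatty acid binding proteins carry them through the cytosol, and long-chain acyl-CoA synthetases join them to coenzyme A, the form used for phospholipid synthesis, storage or oxidation. Perilipins coat the droplets in which surplus lipid is stored. Alveolar type 2 (AT2) cells draw on this supply close to birth to make the phospholipids of surfactant, and EMC3 is a core subunit of the complex that inserts many membrane proteins into the endoplasmic reticulum.

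Values are RPKM (reads per kilobase, corrected for gene length and for library depth), as the authors deposited them. Summed RPKM lay between 141373 and 169294 per library. The number of reads behind them is unknown, and errors after ± are SD between the libraries of a group (n = 2). Differences were taken as mutant minus control of log2(RPKM + 1), a scale that understates the change of low genes, and were tested with limma across the 10128 genes that reached 1 RPKM in 2 or more libraries. All 9 genes were inside that filter.

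Fabp5 and Lpl were lower in both mutant libraries by more than a factor of 2 in their means, Acsl1 was lower by a smaller margin, and Plin3 was higher, while Cd36, Plin2, Acsl3, Acsl4 and Acsl5 overlapped between the groups. None of the 9 passed an adjusted p of 0.05 over all genes, a threshold that 7 genes passed, or 0.0691% of those tested. That count was 0 with all genes kept, 35 without control 35 and 63 without control 27. Fabp5 and Lpl passed without control 27. Both mutant libraries lay below both control libraries for 3 of the 9, where 16.3% of all tested genes did, and above for 1 of the 9, where 30.0% did. An unadjusted limma p under 0.05 was reached by 3 members that were lower, against 5.68% of all tested genes, and by 1 that was higher, against 8.17%. The members were chosen with earlier results of these data known, so these counts only describe them. The median difference of the 9 was -0.15, beside 0.06 for all tested genes. The 9 differences ranged from -1.19 to 0.45, on both sides of that median, so values are given gene by gene.

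**Figure D1:**
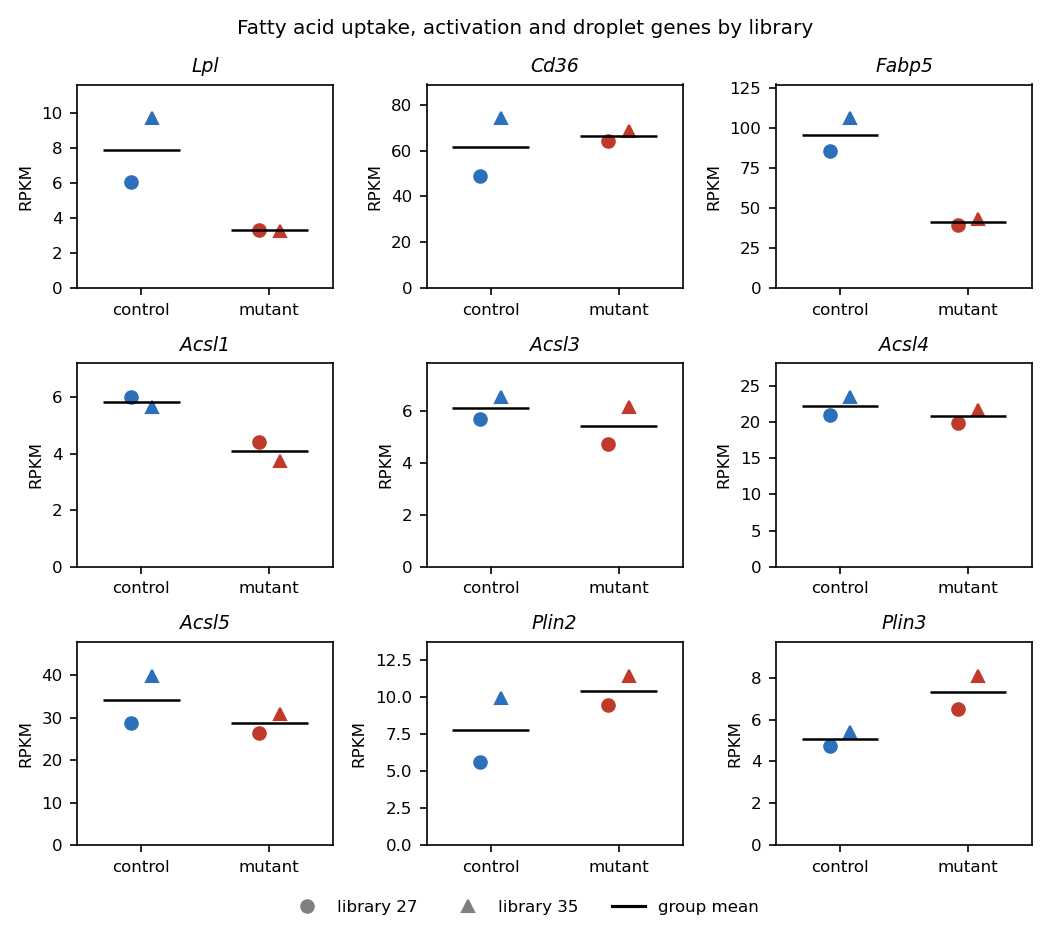
RPKM of each of the 9 genes in the 4 libraries, with controls in blue, mutants in red, circles for the libraries numbered 27, triangles for those numbered 35 and a bar for each group mean. Fabp5, Lpl and Acsl1 sit lower in both mutant libraries and Plin3 higher, and the other 5 genes overlap.

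Lpl encodes lipoprotein lipase, the secreted enzyme that hydrolyses the triglyceride of circulating lipoproteins (chromosome 8, 68880555 to 68906932, GRCm38). It was at 3.32 RPKM in mutant 27 and 3.28 in mutant 35, and at 6.04 in control 27 and 9.68 in control 35. Both mutant libraries were almost at the same level and below both control libraries, which differed between themselves. The control mean of 7.86 ± 2.57 was 2.38 times the mutant mean of 3.30 ± 0.0316 RPKM. The fitted difference of -1.01 (SE 0.22, 95% interval -1.56 to -0.47) did not pass with limma (adjusted p = 0.196), and 0.701% of all tested genes had a more negative difference. Without control 27 it was -1.31 and passed (adjusted p = 0.0450), and without control 35 it was -0.71 and did not (adjusted p = 0.183). Leaving out mutant 27 or mutant 35 gave adjusted p of 0.333 and 0.577. In sorted bulk RNA, fewer cells of a type and less RNA per cell cannot be told apart.

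Cd36 encodes a scavenger receptor that takes up long-chain fatty acids and oxidised lipoproteins (chromosome 5, 17781690 to 17888959). It was at 64.0 RPKM in mutant 27, 68.7 in mutant 35, 49.1 in control 27 and 74.0 in control 35. The mutant libraries lay between the control libraries, with means of 66.3 ± 3.28 and 61.6 ± 17.6 RPKM. Its difference was 0.13 (SE 0.22, limma adjusted p = 0.833). The 95% interval of -0.41 to 0.68 does not show equal levels, and without control 27 the sign turned (difference -0.16).

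Fabp5 encodes the epidermal type of fatty acid binding protein, a small cytosolic carrier of long-chain fatty acids (chromosome 3, 10012585 to 10016610). It was at 39.4 RPKM in mutant 27 and 42.8 in mutant 35, and at 85.3 in control 27 and 106 in control 35. Every mutant library was at about the same level and far below either control library. The control mean of 95.5 ± 14.5 was 2.32 times the mutant mean of 41.1 ± 2.42 RPKM. The difference of -1.19 (SE 0.16, 95% interval -1.60 to -0.78) had an unadjusted limma p of 0.00046 and an adjusted p of 0.108. Without control 27 it was -1.34 and passed (adjusted p = 0.0412). It did not pass without control 35 (adjusted p = 0.0977), mutant 27 (0.252) or mutant 35 (0.395). Only 0.434% of tested genes had a more negative difference. A processed pseudogene, Fabp5l2, is annotated elsewhere in the genome, and how reads were shared between such copies is not given.

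Fabp5 made up nearly all of the fatty acid binding protein RNA. Of the summed RPKM of Fabp1 to Fabp7, it took 95.9% in mutant 27, 94.5% in mutant 35, 98.2% in control 27 and 98.4% in control 35. Fabp3, the heart type, was the next at 1.19 and 2.16 RPKM in mutant 27 and mutant 35 and 1.12 and 1.13 in control 27 and control 35. The sum was 43.2 ± 2.98 RPKM in the mutants and 97.2 ± 14.6 in the controls. The other family members therefore added little to the sum in either group. Fabp1 and Fabp6 were listed at 0 in all 4 libraries.

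The long-chain acyl-CoA synthetases were led by Acsl5 and Acsl4. Acsl5, an isoform of mitochondria and the endoplasmic reticulum (chromosome 19, 55251861 to 55296628), was at 26.4, 30.9, 28.6 and 39.9 RPKM in mutant 27, mutant 35, control 27 and control 35. Acsl4, which prefers arachidonic acid and other polyunsaturated fatty acids (chromosome X, 142317993 to 142390802), was at 19.9, 21.7, 21.0 and 23.5 RPKM in the same order. Acsl3, which acts on lipid droplets and the endoplasmic reticulum (chromosome 1, 78657825 to 78707743), was at 4.73, 6.15, 5.70 and 6.55 RPKM. In all 3 genes the groups overlapped, and within each group the library numbered 35 was the higher. Their differences were -0.24 (SE 0.20), -0.09 (SE 0.14) and -0.15 (SE 0.17), with limma adjusted p of 0.667, 0.825 and 0.744. The 95% intervals, -0.73 to 0.26 for Acsl5, -0.44 to 0.26 for Acsl4 and -0.57 to 0.26 for Acsl3, leave room for changes of either sign. Each group held 1 library with Xist (mutant 35 and control 27, at 55.8 and 83.8 RPKM) and 1 with the Y-linked Eif2s3y (mutant 27 and control 35, at 8.21 and 8.57 RPKM), Acsl4 being X-linked.

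Acsl1, which activates fatty acids for oxidation and for triglyceride synthesis depending on the tissue (chromosome 8, 46471037 to 46536051), was the synthetase whose groups did not overlap. It was at 4.44 RPKM in mutant 27 and 3.76 in mutant 35, and at 6.02 in control 27 and 5.67 in control 35. The control mean of 5.84 ± 0.246 was 1.43 times the mutant mean of 4.10 ± 0.480 RPKM. The difference of -0.43 (SE 0.14, 95% interval -0.78 to -0.08) did not pass (limma adjusted p = 0.296). Acsl1 held 7.99% and 6.01% of the summed ACSL RPKM in mutant 27 and mutant 35 and 9.80% and 7.50% in control 27 and control 35, so its share overlapped between the groups. The make-up of the family was close in the 4 libraries. Acsl5 held 46.6% to 52.8% and Acsl4 31.1% to 35.9% of the sum, and Acsl6 was listed at 0 in all libraries but mutant 35, where it was at 0.0538% of the sum.

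The lipid droplet coat genes had higher means in the mutants. Plin3 encodes a perilipin that moves from the cytosol onto nascent droplets (chromosome 17, 56278962 to 56290511). It was at 6.52 RPKM in mutant 27 and 8.10 in mutant 35, and at 4.73 in control 27 and 5.40 in control 35. Both mutant libraries were above both control libraries, and the mutant mean of 7.31 ± 1.12 was 1.44 times the control mean of 5.06 ± 0.478 RPKM. The difference of 0.45 (SE 0.16, 95% interval 0.06 to 0.84) did not pass (limma adjusted p = 0.318). Plin2 encodes the perilipin that stays bound to droplets and is degraded without them (chromosome 4, 86626910 to 86670217). It was at 9.42, 11.4, 5.64 and 9.94 RPKM in mutant 27, mutant 35, control 27 and control 35. control 35 lay above mutant 27, so the groups overlapped, and the difference of 0.42 (SE 0.26, 95% interval -0.23 to 1.07) did not pass (limma adjusted p = 0.551). Without control 27 it was 0.06. Plin2 and Plin3 together gave most of the perilipin RNA, Plin2 taking 53.4% to 63.5% of the sum over Plin1 to Plin5, and Plin1, the adipocyte form, was listed at 0 in all 4 libraries.

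**Figure D2:**
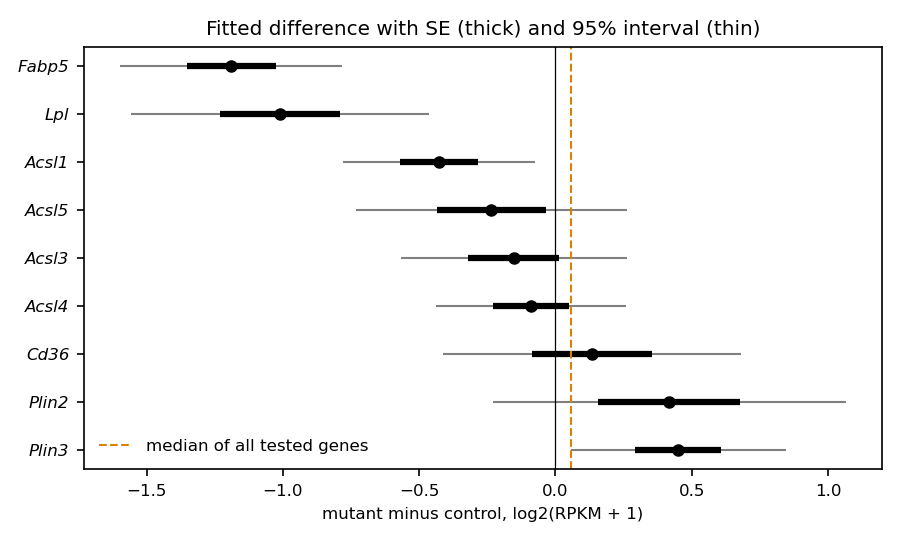
Fitted mutant minus control difference of the 9 genes on the log2(RPKM + 1) scale, with the limma SE as a thick bar and the 95% interval as a thin bar. The dashed line is the median of all tested genes, 0.06. Fabp5 (-1.19) and Lpl (-1.01) lie farthest from it, and the intervals of Cd36, Plin2, Acsl3, Acsl4 and Acsl5 include 0.

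Promoter sequences are shown for the droplet coat genes and for Acsl1, the members with the highest and, after Fabp5 and Lpl, the lowest mutant minus control difference. RefSeq windows on GRCm38.p6, from 250 bases before to 50 after a transcription start, matched 7 of the 9 genes by symbol, with 2 starts for Acsl1. There was no entry for Fabp5 and Lpl. They were searched on both strands for the E-box CACGTG, bound by basic helix-loop-helix factors including SREBP, the sterol regulatory element core TCACCCCAC, the unfolded protein response element core TGACGTGG, the C/EBP-ATF response element core TGATGCAA, and a direct repeat of AGGTCA spaced by 1 base, the kind of site bound by PPAR with RXR. CACGTG and TGACGTGG can share letters, but no matches to them overlapped here. Capitals mark a match, written 5′ to 3′ on the strand of the gene. The windows lie at chr4:86670010-86670309 on the minus strand for Plin2, at chr17:56290462-56290761 on the minus strand for Plin3, and at chr8:46470787-46471086 and chr8:46490716-46491015 on the plus strand for the upstream and the downstream start of Acsl1.
Plin2: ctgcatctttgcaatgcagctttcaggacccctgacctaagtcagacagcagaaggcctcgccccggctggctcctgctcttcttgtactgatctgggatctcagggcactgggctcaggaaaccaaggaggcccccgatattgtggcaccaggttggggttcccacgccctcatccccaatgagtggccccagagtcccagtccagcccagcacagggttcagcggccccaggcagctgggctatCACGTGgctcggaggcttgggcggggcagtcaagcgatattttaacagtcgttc
Plin3: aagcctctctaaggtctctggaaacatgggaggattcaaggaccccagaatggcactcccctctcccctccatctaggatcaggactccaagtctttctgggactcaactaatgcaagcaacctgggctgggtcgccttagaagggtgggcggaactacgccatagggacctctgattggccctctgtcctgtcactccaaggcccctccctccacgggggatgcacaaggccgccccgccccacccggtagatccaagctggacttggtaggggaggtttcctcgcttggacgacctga
Acsl1 upstream start: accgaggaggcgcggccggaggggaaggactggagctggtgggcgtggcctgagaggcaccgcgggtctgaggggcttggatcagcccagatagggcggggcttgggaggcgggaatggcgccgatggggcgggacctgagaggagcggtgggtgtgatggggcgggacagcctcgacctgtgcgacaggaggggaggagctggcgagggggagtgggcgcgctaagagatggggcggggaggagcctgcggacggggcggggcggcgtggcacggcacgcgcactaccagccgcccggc
Acsl1 downstream start: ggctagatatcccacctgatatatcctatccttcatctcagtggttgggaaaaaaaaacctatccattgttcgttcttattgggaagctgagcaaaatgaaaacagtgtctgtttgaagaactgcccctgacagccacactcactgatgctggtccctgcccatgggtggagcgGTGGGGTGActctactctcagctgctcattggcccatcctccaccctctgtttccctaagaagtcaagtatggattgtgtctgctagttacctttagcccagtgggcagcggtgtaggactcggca

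The Plin2 window held an E-box that begins 4 bases before the start, and 7.15% of the 32851 RefSeq windows hold this motif. The downstream window of Acsl1 held the sterol regulatory element core on the opposite strand, beginning 76 bases before the start, a motif found in 0.551% of windows. The CCAAT box, a common promoter element, was also searched and is not put in capitals. It lay in 6 of the 8 windows of the members and in 37.4% of all windows. No match to the other 3 motifs lay in the 8 windows of the members. They are found in 0.676% (TGACGTGG), 0.895% (TGATGCAA) and 0.0396% (the direct repeat) of all windows. The deposited values are per gene, so they do not tell from which Acsl1 start the RNA came. The upstream Acsl1 window was 74.0% G and C, beside a median of 52.7% over all windows.

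The order of the levels within a library differed between the groups for some of the 9 genes. Fabp5 was the most abundant of the 9 in both control libraries with Cd36 next, and Cd36 was the most abundant in both mutant libraries with Fabp5 next. Acsl5 ranked 3 and Acsl4 ranked 4 in all 4 libraries. Plin3 was the lowest of the 9 in both control libraries and ranked 6 in both mutant libraries. Plin2 ranked 8 in control 27 and 5 in each of the others. Lpl ranked 5 in control 27 and 6 in control 35, and was the lowest of the 9 in both mutant libraries. In control 35 Lpl was at 9.68 RPKM, close to Plin2 at 9.94 and above Acsl3, the next lower, at 6.55. In control 27 the 5 lowest genes, Lpl, Acsl1, Acsl3, Plin2 and Plin3, lay between 4.73 and 6.04 RPKM, so their order there carries no weight.

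Ratios between members within a library do not depend on how the library was scaled. The ratio of Fabp5 to Cd36 was 0.616 in mutant 27 and 0.624 in mutant 35, and 1.74 in control 27 and 1.43 in control 35. The ratio of Lpl to Cd36 was 0.0519 and 0.0477 in the mutant libraries and 0.123 and 0.131 in the control libraries. Both ratios were steadier within a group than the RPKM of Cd36 in the controls, which ranged from 49.1 to 74.0, and neither overlapped between the groups. The ratio of Acsl1 to Acsl4 was 0.223 and 0.173 in mutant 27 and mutant 35 and 0.286 and 0.241 in control 27 and control 35, also without overlap. Against Acsl5, the most abundant synthetase, Acsl1 did overlap, at 0.168 and 0.122 in the mutant libraries and 0.210 and 0.142 in the control libraries. Acsl5 to Acsl4, at 1.37 ± 0.0666 in the mutants and 1.53 ± 0.238 in the controls, and Plin2 to Plin3, at 1.43 ± 0.0235 and 1.52 ± 0.458, overlapped. Of the other pairs computed, Acsl3 to Acsl4 overlapped and Fabp5 to Dbi, a binding protein described below, did not. Fabp5, Lpl and Acsl1 already lay lower in both mutant libraries, and the ratios reuse those values. Their separation is therefore not separate evidence, and no share over all pairs of genes was computed.

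**Figure D3:**
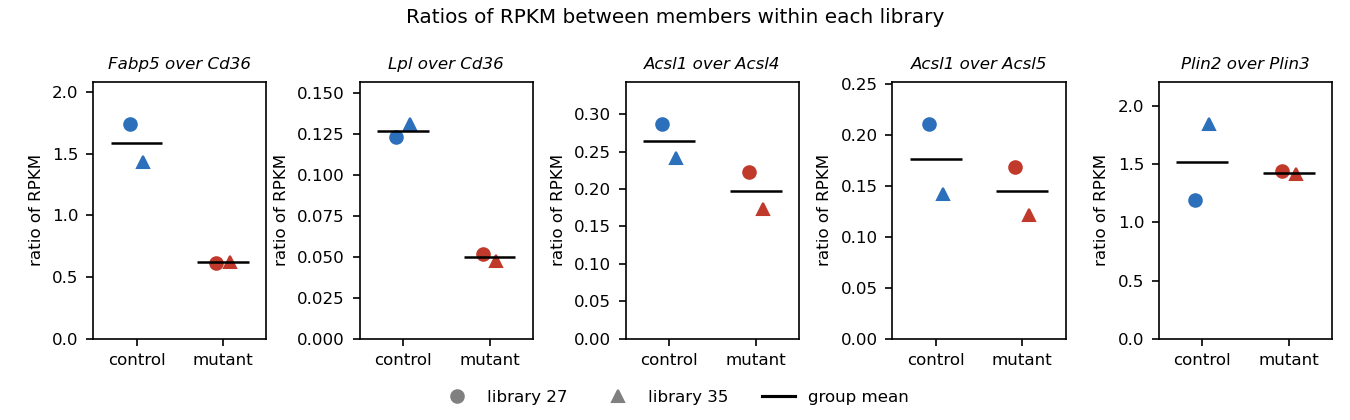
Ratio of the RPKM of 2 members within each library, for Fabp5 to Cd36, Lpl to Cd36, Acsl1 to Acsl4, Acsl1 to Acsl5 and Plin2 to Plin3, with controls in blue, mutants in red, circles for number 27, triangles for number 35 and a bar for each group mean. The first 3 ratios are lower in both mutant libraries, Acsl1 to Acsl5 overlaps, and Plin2 to Plin3 lies between 1.19 and 1.84 in the controls around the mutant values of 1.44 and 1.41.

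The other genes of the pathway were taken from 6 lists of 56 genes by role, of which 29 were inside the filter. No gene of these lists passed the adjusted threshold in either direction. Their median difference was -0.10, and both mutant libraries lay below both control libraries for 9 of the 29 and above for 7, to be read against 16.3% and 30.0% of all tested genes. Genes that reached the filter through the higher group alone, such as Hilpda below, had to differ, so these counts are given only as a description.

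Among the uptake genes, Slc27a1 (FATP1), a fatty acid transport protein with acyl-CoA synthetase activity, was at 6.58 and 3.99 RPKM in mutant 27 and mutant 35 and 7.29 and 8.20 in control 27 and control 35 (difference -0.51, SE 0.22, limma adjusted p = 0.406). Scarb1, the high-density lipoprotein receptor, Vldlr, a receptor for triglyceride-rich lipoproteins, and Got2, a mitochondrial aminotransferase also described as a plasma membrane fatty acid binding protein, overlapped between the groups, with differences from -0.15 to 0.04. Of the lipoprotein lipase partners, Lmf1, a chaperone needed for the lipase to mature in the endoplasmic reticulum, was at 7.77, 7.74, 11.2 and 7.75 RPKM in mutant 27, mutant 35, control 27 and control 35. Only control 27 stood apart there. Lmf2, related to Lmf1, and Angptl8 (listed as Gm6484), a regulator of lipase activity, had differences of 0.15 and 0.16, again with overlap.

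Among the binding proteins, Dbi, which carries acyl-CoA esters, was far more abundant than Fabp5, at 353 and 411 RPKM in mutant 27 and mutant 35 and 300 and 564 in control 27 and control 35, with the mutant libraries between the control libraries. The acyl-CoA binding domain proteins Acbd3, of the Golgi, and Acbd5, of peroxisomes, were higher in both mutant libraries, at 10.6 ± 1.47 against 7.66 ± 0.237 and 7.26 ± 0.846 against 5.83 ± 0.244 RPKM. Neither passed (limma adjusted p = 0.323 and 0.481).

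In the activation list Acot1, Acsf2, Acot13 and Acot2 were lower in both mutant libraries and Acot9 was higher. Acot1, a cytosolic thioesterase that cleaves long-chain acyl-CoA back to the free acid, was at 19.3 and 17.8 RPKM in mutant 27 and mutant 35 and 30.1 and 36.3 in control 27 and control 35 (difference -0.80, SE 0.15, limma adjusted p = 0.177). Acot2, a mitochondrial thioesterase, was at 13.6, 15.4, 17.9 and 15.7 RPKM in mutant 27, mutant 35, control 27 and control 35. It is a close paralogue of Acot1, and reads could be split between them. Acsf2, a mitochondrial acyl-CoA synthetase, was at 2.53 ± 0.0463 RPKM in the mutants and 4.20 ± 0.269 in the controls (difference -0.56, SE 0.13, limma adjusted p = 0.205). Acot13, a thioesterase linked to mitochondria, was at 16.7 and 16.2 RPKM in the mutants and 19.8 and 30.3 in the controls, and Acot9 went the other way at 3.27 ± 0.140 and 2.25 ± 0.544 RPKM.

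The droplet genes were mixed. Fitm2, a protein of the endoplasmic reticulum needed for droplet formation, was at 2.69 and 2.44 RPKM in mutant 27 and mutant 35 and 1.39 and 1.78 in control 27 and control 35 (difference 0.47, SE 0.15, limma adjusted p = 0.295). Hilpda, a hypoxia-inducible droplet protein that inhibits the lipase ATGL, was at 1.52 and 1.38 in the mutants and 0.853 and 0.959 in the controls. Bscl2 (seipin), which shapes the contact between droplet and endoplasmic reticulum, and Abhd5, the activator of ATGL, were lower in both mutant libraries, at 2.25 ± 0.655 against 3.27 ± 0.177 and 20.1 ± 0.0704 against 31.3 ± 11.5 RPKM. Pnpla2, which encodes ATGL itself, overlapped, with means of 10.7 and 10.2 RPKM.

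Of the nuclear receptors that respond to fatty acids, Pparg and Ppara were low. Pparg was at 2.15 and 3.36 RPKM in mutant 27 and mutant 35 and 0.988 and 1.02 in control 27 and control 35 (difference 0.89, SE 0.20, limma adjusted p = 0.196). Ppara was at 1.27 and 1.13 in the mutants and 1.79 and 2.26 in the controls (difference -0.46, SE 0.16, adjusted p = 0.307), and Ppard, the most abundant of the 3, was at 7.04 ± 0.515 and 7.99 ± 0.483. Pparg was higher in both mutant libraries, and its control levels lay at about the 1 RPKM of the filter. Lpl is known in adipocytes and macrophages as a target of PPARG. Here the difference of Lpl (-1.01) was of the opposite sign to that of Pparg, and a link between them was not tested.

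**Figure D4:**
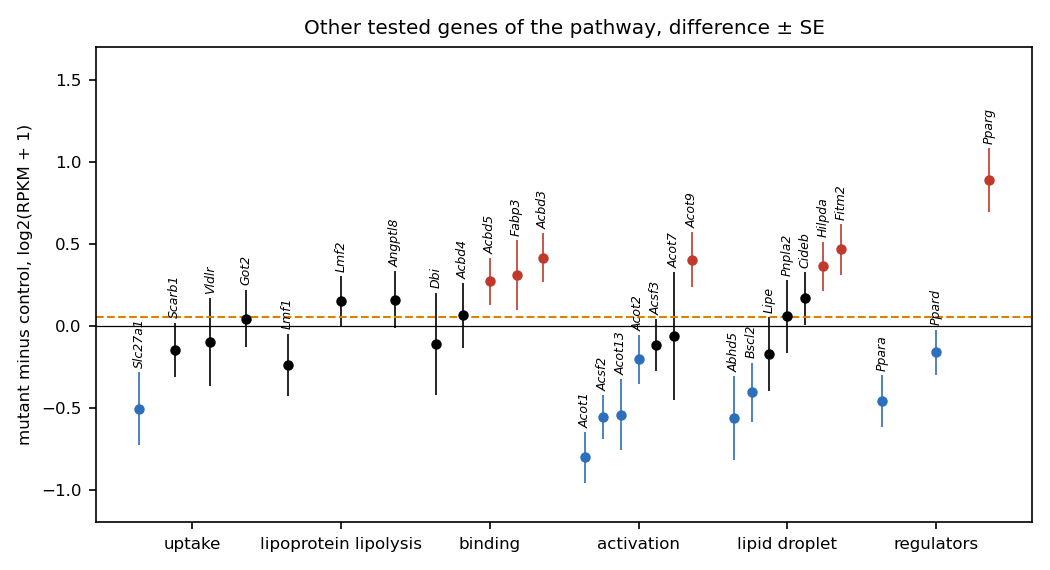
mutant minus control difference on the log2(RPKM + 1) scale, with the limma SE, for the 29 tested genes of the other pathway lists, grouped by role. Red marks genes with both mutant libraries above both control libraries, blue the reverse and black an overlap, and the dashed line is the median of all tested genes. Pparg (0.89) is the highest and Acot1 (-0.80) the lowest.

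By Euclidean distance between centred log2(RPKM + 1) values over the 4 libraries, among 4464 genes with a mean of at least 5 RPKM, the profiles nearest to Fabp5 were Rsph1 (distance 0.171), Gjb6 (0.232), Cyp2f2 (0.261), Hp (0.266) and 1700012B09Rik (0.281). Lpl ranked 7 in this order (0.289), and the next ranked member was Acsl5 (0.963). Acsl1, with a mean of 4.97 RPKM, fell just under the minimum and was not ranked, and its distance was 0.838. Cyp2f2 is also 1 of the 3 club cell markers used below, and the part of airway cells in this likeness was not tested. The points are 4 libraries, so this is a description of likeness only.

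Other cells of the lung also express several of these genes, CD36 and lipoprotein lipase being known in macrophages and CD36 in capillary endothelium. Counts of markers are given for whole lists and, in the filter, are to be read against the 30.0% of tested genes that were higher and the 16.3% that were lower in both mutant libraries. Of 12 immune markers, 9 (5 of the 5 in the filter) were higher in both mutant libraries, with C1qa listed at 0 in all libraries. Tyrobp and Cd52 reached the filter through the mutant libraries alone, so they had to be higher there. Ptprc, Adgre1, Marco and Mrc1, also higher in both, were below the filter, where no share over all genes was computed. The 12 markers summed to 18.9 and 16.4 RPKM in mutant 27 and mutant 35. In control 27 and control 35 they summed to 7.21 and 5.68 RPKM. Of 8 endothelial markers, 3 (2 of the 6 in the filter) were lower in both mutant libraries and none higher, and their sum was 13.2 to 16.7 RPKM in the mutants and 15.2 to 17.6 in the controls. Of 8 fibroblast markers 1 (of 4 in the filter) was lower in both, with sums of 19.6 to 22.0 in the mutants and 17.1 to 23.7 in the controls, and the 4 erythroid markers summed to 1.79 to 3.45 and 2.58 to 5.31. The ciliated, club, AT2, AT1 and epithelial markers were all in the filter. Of 3 ciliated cell markers, all 3 were lower in both mutant libraries (sums 53.9 to 56.3 against 83.1 to 133), and of 3 club cell markers 2 were (sums 1729 to 2889 against 2807 to 10016). Of 6 AT2 markers, 2 were lower in both mutant libraries and none higher, and their sums overlapped at 9444 to 9564 in the mutants and 8142 to 12204 in the controls. Of 5 AT1 markers 1 was lower in both mutant libraries, with sums of 134 to 138 in the mutants and 129 to 204 in the controls. The epithelial markers Epcam, Cdh1 and Nkx2-1 summed to 423 to 452 in the mutants and 419 to 451 in the controls. Nkx2-1 made up most of these sums, with means of 268 and 274 RPKM in mutants and controls. Epcam, the marker used for sorting, was higher in both mutant libraries, at 52.9 and 53.9 RPKM against 35.2 and 46.2. The like sums therefore do not show like levels of each marker. The part of these cells in the differences of Fabp5, Lpl, Plin3 and Pparg was not tested.

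The authors' deposited table also gives a signed fold change and a p-value per gene. In the authors' deposited table, p was under 0.05 for 3 of the 9 members, where 2.64% of all 23444 genes were. That total includes 5819 genes listed at 0 in all libraries, so it is not a matched base for the 9 members. In that table Fabp5 was 4.81-fold lower in the mutants with a p of 0.00412, Lpl 4.78-fold lower with a p of 0.00444 and Acsl1 3.04-fold lower with a p of 0.0392, each p being the authors' and not marked as adjusted. The same authors' deposited table put Cd36 at 1.85-fold lower and Plin2 at 1.43-fold lower in the mutants, both opposite in sign to the ratio of mean RPKM, and Acsl4 at 2.09-fold lower. For Plin3 it gave 1.26-fold higher, for Acsl5 1.26-fold lower and for Acsl3 1.18-fold lower, of the same sign as the RPKM ratio.

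These fold changes differed from the RPKM by an amount that depended on the chromosome. The authors' log2 fold was below the log2 ratio of mean RPKM by a median of 0.06 for genes on chromosomes 1 and 10 to 19 and by a median of 1.04 for genes on chromosomes 3 to 9 and X. The 6 members on the second set of chromosomes, Fabp5, Lpl, Cd36, Plin2, Acsl1 and Acsl4, were displaced by 0.94 to 1.09, and the 3 on the first set, Acsl3, Acsl5 and Plin3, by 0.06 to 0.20. Less the median displacement of their chromosomes, the authors' log2 folds were -1.22 for Fabp5, -1.21 for Lpl, -0.56 for Acsl1, 0.16 for Cd36, 0.52 for Plin2 and -0.02 for Acsl4, beside log2 RPKM ratios of -1.22, -1.25, -0.51, 0.11, 0.42 and -0.09. The displacement was itself measured against the RPKM ratio in the same libraries, so this likeness is not independent evidence. The RPKM columns showed no such step, their median log2 ratio of mutant to control being 0.08 on the first set of chromosomes and 0.06 on the second. Fabp5, Lpl and Acsl1, the members with an authors' p under 0.05, all lie on the second set. There 227 of 3745 genes with at least 1 RPKM in every library had such a p, all lower in the mutants. On the first set 13 of 4037 did, 10 lower and 3 higher. The part of the displacement in the authors' p of these members was not tested.

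**Figure D5:**
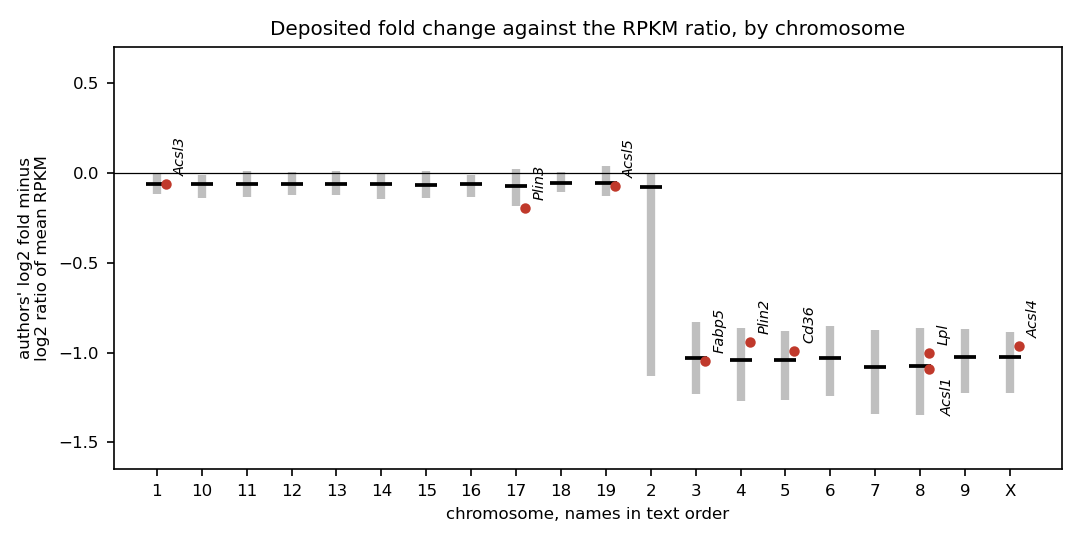
Authors' log2 fold change minus the log2 ratio of mean RPKM, per chromosome in the text order of the names, for genes with at least 1 RPKM in every library. Black marks are medians, grey bars run from the 10th to the 90th percentile, and red points are the 9 members. The medians lie between -0.07 and -0.06 on chromosomes 1 and 10 to 19 and between -1.08 and -1.02 on chromosomes 3 to 9 and X, and chromosome 2 spans both levels.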

How the data were processed

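RNA of EpCAM-sorted lung cells was sequenced by the authors. Nextera XT libraries were prepared, per the labels' protocols. The submitters' processing notes list DESeq, Cufflinks 2.0.2, TopHat2 2.0.8 and Bowtie2 2.1.0 with mm10, and the role of each and the annotation were not stated. The deposited values are RPKM, per the file headers, 1 column a library, with the authors' p-value (not marked as adjusted) and a signed fold change, a score with minus the inverse for lower genes, per the file headers.

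Columns were grouped by heading. Genes that reached 1 RPKM in 2 or more libraries were fitted by limma 3.58.1 (R 4.3.3) to log2(RPKM + 1) values (trend in the prior variance, genotype only, 2 residual and 3.65 prior degrees of freedom), two-sided, Benjamini-Hochberg adjusted over 10128 genes, threshold 0.05. The test was tried on simulated data with independent noise for each gene and no effects shared within a library. That trial therefore does not show how the test behaves on these libraries. The members, the lists and the rule for named genes (the 9 members, Emc3, Pparg, up to 4 genes with the smallest p in each list, and the 5 profiles nearest to Fabp5) were chosen with earlier results of these data known. Alternatives were the groups of the titles, a replicate block by the heading number, quantile normalization, no trend, other filters and pseudocounts, and each library left out.

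Positions and promoters are from RefSeq on GRCm38.p6, the build that mm10 names, and 21890 of 23444 symbols had 1 position. Python 3.11.15, pandas 2.3.3 and matplotlib 3.10.9 made summaries and figures. Reads were not used.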

Additional observations from a re-analysis of the deposited data

How the results depend on the processing

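With the grouping of the headings, over the 11 or 12 settings run for each gene, differences on the log2 scale stayed between -1.34 and -1.04 for Fabp5 (adjusted p 0.0412 to 0.395), between -1.31 and -0.62 for Lpl (0.0450 to 0.577), between -0.52 and -0.25 for Acsl1 and between 0.29 and 0.59 for Plin3. The count of members past the threshold was 0 in all of these but the one without control 27, so leaving out 1 library gave 0 to 2. The signs of Cd36 (-0.16 without control 27, 0.43 without control 35) and Acsl3 (0.0068 without mutant 27) reversed. With 1 library left in a group, that library is assumed to vary like the other group. The call of Emc3 ended with no filter (adjusted p = 0.171) and when 10 RPKM was required (adjusted p = 0.0696), a level that 4 members reach.

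With the groups of the titles, Fabp5 was at 0.21, Lpl 0.29, Acsl3 0.24, Acsl4 0.14, Acsl5 0.34 and Emc3 0.17, reversed from the headings, the median of the members was 0.24 and no member passed. The SE was 1.06 for Emc3 and 0.55 for Fabp5, and each of those groups holds 1 library low in Emc3 and 1 high in it. The count over all genes, 7, became 4 with the titles, 0 with no filter, 4 with a filter of 10 RPKM, 4 with a pseudocount of 5, and 9 to 63 with 1 library left out (63 without control 27). With 1 library left out the median of the members ranged from -0.31 to -0.01. The cause of these changes was not tested. The replicate block by the heading number called 9 genes and no member. The deviations of same-numbered libraries from their group means had a correlation of 0.148 across genes, and with 2 pairs the numbers are not shown to pair the libraries. The replicate numbers of the titles coincide with genotype by heading and give no block. The number of reads is unknown, so low levels carry no counting interval.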

Other observations

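Among pathway genes below the filter, G0s2 and Gpihbp1 were named after their values were seen. G0s2, an inhibitor of the triglyceride lipase ATGL, was at 0.240 and 0.168 RPKM in mutant 27 and mutant 35 and at 1.37 and 0.764 in control 27 and control 35. Gpihbp1, which holds lipoprotein lipase at the capillary wall, was at 0.246 and 0.0536 RPKM in the mutants and 0.694 and 0.815 in the controls. Of the 27 pathway genes below the filter, these 2 were lower in both mutant libraries and 4 were higher in both, Slc27a3, Slc27a4, Angptl4 and Lipc. Another 6 were listed at 0 in all libraries. No share over all genes below the filter was computed, so these counts are not a result about the pathway. Angptl4, an inhibitor of lipoprotein lipase, was at 0.252 and 0.348 RPKM in the mutants and 0.179 and 0.194 in the controls. None of these genes was tested.

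The step between the deposited fold changes and the RPKM was located on all genes with at least 1 RPKM in every library, a search made after the values of the members were seen. On chromosome 2 the displacement changed level between genes that start at 147012755 and at 148042877, with a median log2 difference of -0.06 over the 475 genes before and -1.07 over the 175 genes after. In the text order of the chromosome names, from 1 through 10 to 19 and then 2 to 9 and X, every chromosome before that point was near -0.06 and every chromosome after it near -1.04. In the authors' deposited table, 227 of 3745 such genes on chromosomes 3 to 9 and X had a p-value under 0.05, all 227 with a lower value in the mutants, and 13 of 4037 genes on chromosomes 1 and 10 to 19 had one, 10 lower and 3 higher. The sign of the deposited fold was opposite to that of the RPKM ratio for 57.0% of genes on the later set and 10.3% on the earlier set. Between the libraries of a group the RPKM showed no step, the median log2 ratio of mutant 35 to mutant 27 being 0.04 on the earlier set and 0.03 on the later, and that of control 35 to control 27 being 0.05 on each. The cause of the step was not tested.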
